A study of Homo sapiens with 6 samples.

Results

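Homologous recombination copies the lost sequence of a broken chromosome from the sister chromatid, and the Fanconi anemia pathway clears crosslinks between the DNA strands by handing the resulting break to the same machinery. The 43 genes described here belong to these pathways, apart from POLQ of microhomology-mediated end joining. They were taken by symbol from a fixed list out of the 24462 different symbols in the read counts. All 43 listed symbols are found, each as a single entry, and all 43 have enough reads to be tested. The list names the genes by pathway, and it was drawn up with earlier results of these data known.

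Bulk RNA-seq was made in triplicate from 1CT, a line of human colon epithelial cells immortalized in culture, and in triplicate from its derivative 1CT-A, in which APC is depleted. APC is the scaffold of the complex that degrades β-catenin. The labels give the genotypes as WT and APC KD. All 6 libraries come from untreated cells in 1 medium with 20 ng/ml epidermal growth factor and 2% FBS. Neither the labels nor the methods say whether 1CT-A is 1 clone, or whether libraries of a cell line come from separate cultures, so p values measure only the spread between these libraries, which may be technical. The libraries of 1CT hold 7788679 to 8452258 reads counted on genes, and those of 1CT-A 11158108 to 12602988. Levels are given as CPM, a gene's reads scaled to the library total and not corrected for transcript length, and log2 fold changes (log2FC, with their standard error, SE) come from edgeR after TMM scaling. The mean level of APC is 46.6 CPM with an SD of 2.75 over the 1CT libraries, against 31.9 CPM with an SD of 2.21 over those of 1CT-A, so 0.668 of its RNA level remains (edgeR adjusted p = 1.8e-04). Of 10 colon epithelial markers, 6 including EPCAM, VIL1, CDX1 and CDX2 have at most 3 reads in every library, and the list sums to 13.4 to 17.4 CPM in the 1CT libraries, against 3.23 to 7.20 CPM in those of 1CT-A. KRT18, a keratin of simple epithelia, has 36 to 109 reads in every library, and KRT19, another one, has 20 to 34 reads in each 1CT library and 0 in those of 1CT-A. The 10 mesenchymal markers sum to 45452 to 53611 CPM in the former and 22400 to 23772 CPM in the latter, and 7 of them fall while COL3A1 and TWIST1 rise. Most of the sum is FN1, with 40237 to 47281 CPM against 17421 to 19040 CPM. Most defining markers of the labelled epithelium are thus at or near 0 in both cell lines, while KRT18 is found in all libraries. The immune list has 5 of 8 markers and the endothelial list 4 of 4 at no more than 3 reads in every library. Of the other immune markers, CD68 has 85 to 121 reads per library, CD14 has 4 to 13 and LYZ 0 to 5. MALAT1, a nuclear RNA, is at 12783 to 13059 CPM in 1CT and at 2102 to 2314 CPM in 1CT-A, and the part of such differences between the lines in the results below was not tested.

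In homologous recombination, the MRN complex and RBBP8 start trimming the broken ends, and EXO1, DNA2 and BLM extend the trimming. BRCA1 with BARD1 and then PALB2 with BRCA2 prepare the trimmed end for strand exchange, and the XRCC2 and XRCC3 family and RAD54 proteins help the end to find the homologous copy. In the Fanconi pathway, a core complex and the E2 enzyme UBE2T attach ubiquitin to FANCD2 and FANCI, which then call in the nucleases that cut out the crosslink. Both pathways work mainly in S and G2 phase, and many of their genes are known to be transcribed in step with the cell cycle. In bulk samples, a larger share of cells in these phases and more RNA per cell cannot be told apart.

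More than 1 in 2 of these genes are higher in APC-depleted cells. The adjusted p is under 0.05 for 26 of the 43 genes, where this holds for 51.0% of the 12514 genes tested. Of the 43 genes 24 (55.8%) rise, where 25.0% of all genes tested do, and RAD50 and RAD52 fall (4.65%), where 26.0% of all genes tested do. The other 17 genes do not pass the threshold. The summed level of the 43 genes is 793 to 860 CPM in the 1CT libraries and 1125 to 1161 CPM in the 1CT-A libraries, so the sums do not overlap. The median log2 fold change over the genes is 0.44, and the middle 50% of them lie between 0.21 and 0.81, while it is -0.01 over all genes tested. In 27 genes (62.8%) every 1CT-A library lies above every 1CT library, where 31.8% of all genes tested do so, and in 2 genes every one lies below, where 27.9% do. By the sizes of the cutoffs in the study's methods, a 2-fold difference with a raw p below 0.01, 7 genes rise (16.3%), where 3.80% of all genes tested do, and 1 falls, where 9.60% do. The p here is that of edgeR, while the methods name a two-tailed test of each gene, and the 8 genes become 4 with such a test and 4 with upper quartile scaling. The 7 that rise are EXO1, BLM, XRCC3, FANCC, FANCE, UBE2T and FANCD2, and the falling gene is RAD52.

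**Figure D1:**
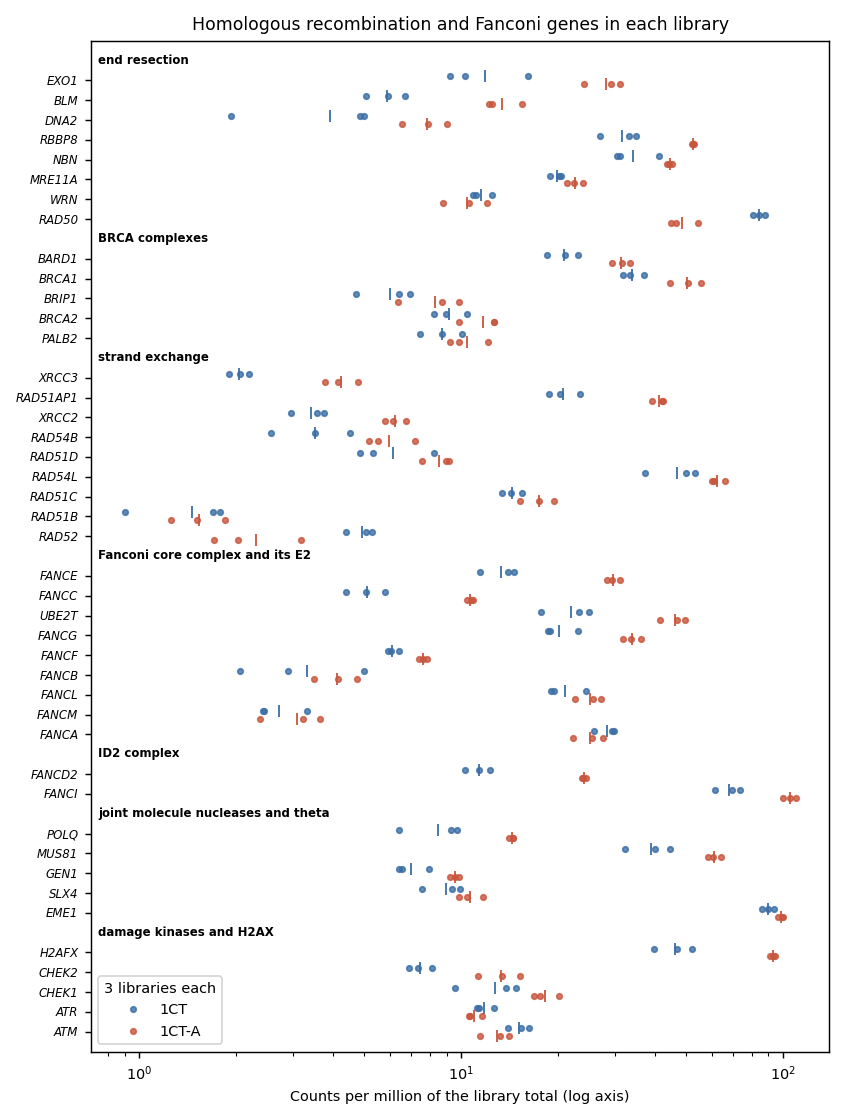
Level of each of the 43 genes in each library, as CPM on a log axis, grouped by role. Points are the 3 libraries of 1CT (blue) and of 1CT-A (red) and ticks are group means; in 27 genes all red points lie to the right of all blue points, and in RAD50 and RAD52 all lie to the left.

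**Figure D2:**
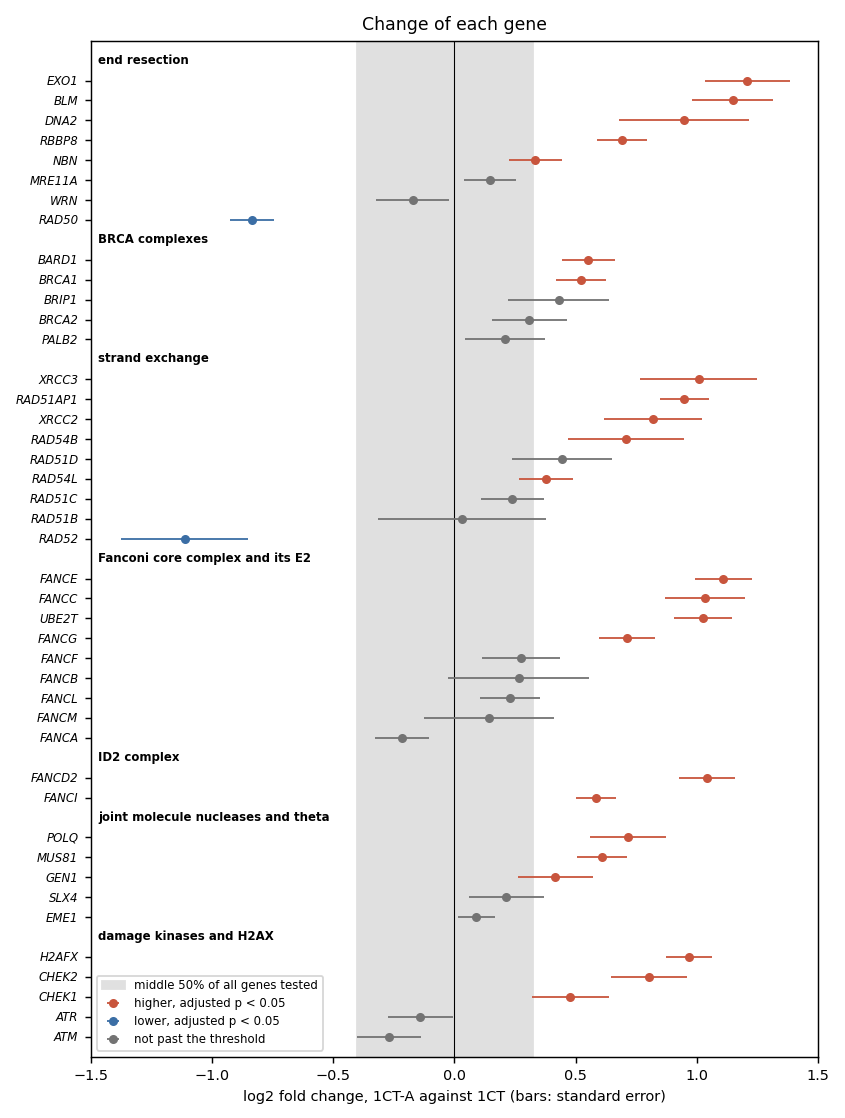
log2FC (1CT-A over 1CT) of each gene, with its standard error, grouped by role and colored by the call at an adjusted p under 0.05. The gray band holds the middle 50% of all 12514 genes tested; 24 genes are called higher and 2 lower.

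Many genes of this kind are known targets of E2F transcription factors, so the promoters were searched for E2F-like sites. Those printed are examples, namely 4 risers that hold a site and RAD50, which falls and holds none. RefSeq promoters on GRCh38.p14, each 300 bases long from 250 before to 50 after the gene start, are matched for 38 of the 43 genes. The letters searched on both strands are those of an E2F-like site, namely TTGGCGC, or the variant of it that reads TTCCCGC, or the one with TTCGCGC, or lastly the one with TTGCCGC. It occurs in 20 of the 38 promoters (52.6%), and in 21.1% of the promoters of all matched genes that were tested and 13.1% of all 27305 promoters in the table. Among the 20 matched genes that rise, 13 (65.0%) hold it, and 7 of the other 18 (38.9%) do. A CHR-like site, which is TTTGAA or in its other form TTCGAA, occurs in 6 of the 38 promoters (15.8%, against 11.2% of the genes tested). A CCAAT box occurs in 16 of the 38 promoters (42.1%, against 37.2%). The median GC content is 63.8% in the 38 promoters and 65.3% in those of the genes tested. The shares are descriptions of short windows, and no factor binding was measured. Printed below are 120 bases before and 30 after each start in lower case, with the E2F-like letters in capitals. They are chr15:90717226-90717375 on the plus strand for BLM, chr3:10026317-10026466 on the plus strand for FANCD2, chr1:241848084-241848233 on the plus strand for EXO1, chr6:35452218-35452367 on the plus strand for FANCE and chr5:132556857-132557006 on the plus strand for RAD50.
BLM: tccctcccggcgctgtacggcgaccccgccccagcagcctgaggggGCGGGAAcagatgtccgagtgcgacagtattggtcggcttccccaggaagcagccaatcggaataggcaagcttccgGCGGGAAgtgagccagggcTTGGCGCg
FANCD2: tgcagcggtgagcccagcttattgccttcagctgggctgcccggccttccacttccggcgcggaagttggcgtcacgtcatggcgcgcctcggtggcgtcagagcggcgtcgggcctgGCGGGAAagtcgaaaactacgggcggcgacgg
EXO1: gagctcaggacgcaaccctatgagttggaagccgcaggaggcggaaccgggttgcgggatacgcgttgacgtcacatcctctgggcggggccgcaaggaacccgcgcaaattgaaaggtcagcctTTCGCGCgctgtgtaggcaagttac
FANCE: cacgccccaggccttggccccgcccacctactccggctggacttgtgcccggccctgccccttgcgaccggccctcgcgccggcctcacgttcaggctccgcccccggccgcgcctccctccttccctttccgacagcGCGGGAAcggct
RAD50: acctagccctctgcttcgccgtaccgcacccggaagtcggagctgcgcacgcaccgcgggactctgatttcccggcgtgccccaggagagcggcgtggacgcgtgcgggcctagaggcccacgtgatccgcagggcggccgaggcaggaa
BLM carries 3 matches, the first base of which lies at -74, 4 and 23 from the start. In FANCD2 the match spans the start itself, from -2 to 5, and in EXO1 and FANCE it begins at 6 and 19. The RAD50 promoter holds no match to these letters, and neither do those of BRCA2, PALB2, ATM and ATR. Calls and letters do not go together throughout. RAD52, which falls, holds a match from -234 to -228, outside the stretch that is printed for the others. FANCL, FANCF, FANCA, RAD51D, EME1 and BRIP1 hold a match and are not called. The risers UBE2T, H2AFX, CHEK1, CHEK2, MUS81 and RBBP8 hold none. No match is found for the riser BRCA1 either, but its window, chr17:43170278-43170577 on the minus strand, lies beyond the gene start at 43170245 in GENCODE. No base of the GENCODE gene of BRCA1 was thus searched.

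Of the 8 genes of end resection 5 rise and 1 falls. EXO1, the exonuclease of long-range resection, is at 9.23, 16.1 and 10.3 CPM in the 1CT libraries and at 24.1, 29.1 and 31.2 CPM in 1CT-A. Every 1CT-A library lies above every 1CT library, and EXO1 has the largest rise of the 43 genes, with a log2FC of 1.21 (SE 0.18, edgeR adjusted p = 8.5e-05). BLM, the helicase that unwinds DNA for resection and dissolves joint molecules, rises by 1.15 on the log2 scale (SE 0.17), and DNA2, the nuclease that works with it, by 0.95 (SE 0.27). RBBP8, which activates MRE11 at the break, rises by 0.69 (SE 0.10). WRN, another helicase of the RecQ family, has a log2FC of -0.17 (edgeR adjusted p = 0.366), and its groups overlap.

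RAD50, the long coiled-coil ATPase of the MRN complex, is 1 of the 2 genes that fall. It is at 87.9, 84.0 and 80.4 CPM in the 1CT libraries and at 54.2, 44.8 and 46.3 CPM in 1CT-A. All 1CT-A libraries lie below all 1CT libraries, and the log2FC is -0.83 (SE 0.09, edgeR adjusted p = 8.0e-06). The partners of RAD50 do not follow it. NBN, the subunit that recruits ATM, is at 30.5, 41.1 and 31.2 CPM in 1CT and at 44.3, 45.3 and 43.6 CPM in 1CT-A, a log2FC of 0.33 (edgeR adjusted p = 0.0214). The call of NBN is lost without 1CT replicate 1 (adjusted p = 0.0914), without 1CT-A replicate 1 (0.0525) and without 1CT-A replicate 2 (0.0627). MRE11A, the nuclease subunit, has a log2FC of 0.15 (SE 0.11, edgeR adjusted p = 0.278). The ratio of RAD50 to NBN reads within a library, which no scaling between libraries can change, is 2.88, 2.05 and 2.58 in 1CT and 1.22, 0.988 and 1.06 in 1CT-A. The ratio of RAD50 to MRE11A reads goes from 4.29, 4.46 and 3.99 to 2.42, 2.11 and 1.94. RAD50 thus changes unequally with both partners, and neither ratio overlaps between the cell lines (p = 0.1 in a two-sided exact permutation test, which is as low as 3 libraries against 3 can go). In the GRCh38 annotation RAD50 lies on chromosome 5 from 132556019 to 132646349. The median log2 fold change of the 49 other genes tested within 5 Mb of it is -0.29, the lowest such median beside any of the 43 genes, where the median over chromosome 5 is -0.12. UBE2T, which rises, has a neighbor median of -0.26, and RAD52, the other gene that falls, one of 0.16. The part of the region in the fall of RAD50 was not tested.

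Among the BRCA complexes the heterodimer of BRCA1 and BARD1 rises. BRCA1, the ubiquitin ligase that promotes resection, is at 33.4, 36.9 and 31.7 CPM in the 1CT libraries and at 55.5, 44.4 and 50.6 CPM in 1CT-A, a log2FC of 0.52 (SE 0.10, edgeR adjusted p = 0.00103). BARD1, its obligate partner, is at 18.5, 21.0 and 23.1 CPM in 1CT and at 29.3, 31.5 and 33.3 CPM in 1CT-A, a log2FC of 0.55 (SE 0.11, edgeR adjusted p = 0.00106). Neither gene overlaps between the cell lines. The ratio of BARD1 to BRCA1 reads is 0.553 to 0.729 in 1CT and 0.528 to 0.709 in 1CT-A, so a change of the ratio is not told apart from the spread (p = 1, two-sided exact permutation test).

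BRCA2 and PALB2 are not called. BRCA2, which acts after resection, is at 10.4, 8.93 and 8.22 CPM in the 1CT libraries and at 9.86, 12.6 and 12.6 CPM in 1CT-A, with a log2FC of 0.31 (SE 0.16, edgeR adjusted p = 0.112). PALB2, which joins BRCA2 to BRCA1, is at 10.1, 8.69 and 7.45 CPM in 1CT and at 9.23, 12.1 and 9.84 CPM in 1CT-A, with a log2FC of 0.21 (SE 0.16, edgeR adjusted p = 0.309). Both genes overlap between the cell lines, and a rise of the size seen in BRCA1 is within 2 standard errors of the BRCA2 value. BRIP1, the helicase partner of BRCA1, has a log2FC of 0.43 (edgeR adjusted p = 0.101) and is called without 1CT replicate 3 (adjusted p = 0.0463) and without 1CT-A replicate 1 (0.0359).

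The genes of strand exchange hold 5 rises and 1 fall among 9 genes. RAD51AP1, which stimulates strand invasion, is at 20.2, 23.3 and 18.7 CPM in the 1CT libraries and at 42.0, 39.1 and 42.4 CPM in 1CT-A. The groups are far apart, with a log2FC of 0.95 (SE 0.10, edgeR adjusted p = 6.6e-06). XRCC2 and XRCC3 belong to a family of related proteins whose genes differ in call. XRCC3 rises by 1.01 (SE 0.24) and XRCC2 by 0.82 (SE 0.20) on the log2 scale, from means of 2.04 and 3.42 CPM in 1CT. RAD51D, RAD51C and RAD51B have log2 fold changes of 0.44, 0.24 and 0.03 and do not pass (edgeR adjusted p = 0.0908, 0.144 and 0.948), although RAD51D passes without 1CT replicate 3 (0.00550). RAD51B has 7 to 21 reads per library and an SE of 0.35. RAD54B, a translocase related to RAD54L, rises by 0.71 (SE 0.24, edgeR adjusted p = 0.0257), a call that is lost without 1CT replicate 2 (0.0553), without 1CT replicate 3 (0.0753) and without 1CT-A replicate 1 (0.105).

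RAD52 falls. It is an annealing protein that in human cells backs up BRCA2, and it is at 4.38, 5.07 and 5.26 CPM in the 1CT libraries and at 1.70, 2.02 and 3.17 CPM in 1CT-A, on 37 to 42 reads and 19 to 40 reads per library. The levels do not overlap, and the log2FC is -1.11 (SE 0.26, edgeR adjusted p = 0.00329). RAD52 is thus the only one of the 43 genes past a 2-fold fall. The ratio of RAD52 to BRCA2 reads is 0.420, 0.568 and 0.641 in 1CT and 0.173, 0.160 and 0.252 in 1CT-A. This ratio is lower in every 1CT-A library than in any 1CT library (p = 0.1, two-sided exact permutation test).

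Of the 9 genes of the Fanconi core complex and its E2 enzyme, 4 rise (44.4%, against 25.0% of all genes tested) and 5 are not called. FANCE, which holds FANCD2 for ubiquitination, is at 14.6, 14.0 and 11.4 CPM in the 1CT libraries and at 29.3, 28.3 and 31.2 CPM in 1CT-A, a log2FC of 1.11 (SE 0.12, edgeR adjusted p = 5.5e-06). FANCC, bound to FANCE in the complex, rises by 1.03 on the log2 scale (SE 0.16), and UBE2T, the E2 enzyme, by 1.03 (SE 0.12). FANCG, an adaptor of FANCA, rises by 0.71 (SE 0.11). In all 4 the cell lines do not overlap. FANCL, the E3 ligase of the complex, and FANCB, FANCF and FANCM have log2 fold changes of 0.23, 0.27, 0.27 and 0.14 without passing the threshold. FANCB is at 4.97, 2.90 and 2.05 CPM in 1CT, and its log2FC ranges from 0.04 without 1CT replicate 3 to 0.68 without 1CT replicate 1, while that of FANCM ranges from 0.0053 without 1CT-A replicate 3 to 0.31 without 1CT replicate 1. FANCF passes in the per-gene two-tailed test alone among the alternatives (adjusted p = 0.0139), and FANCL passes only without 1CT replicate 2 (edgeR adjusted p = 0.0391). FANCA has a log2FC of -0.22 (SE 0.11, edgeR adjusted p = 0.119) with overlapping groups. Genes whose proteins bind each other therefore differ in measured change, although the counts of FANCA and FANCL are uncertain because of overlapping neighbors, as given below. The ratio of FANCA to FANCG reads is 1.37, 1.60 and 1.28 in 1CT and 0.703, 0.817 and 0.703 in 1CT-A, and that of FANCE to FANCF reads is 1.93 to 2.32 in 1CT and 3.76 to 4.09 in 1CT-A.

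Both genes of the ID2 complex, the pair that the core complex ubiquitinates, rise. FANCD2 is at 11.4, 12.3 and 10.3 CPM in the 1CT libraries and at 23.8, 24.4 and 23.7 CPM in 1CT-A, a log2FC of 1.04 (SE 0.12, edgeR adjusted p = 9.1e-06). FANCI is at 69.2, 73.4 and 61.6 CPM in 1CT and at 99.6, 105 and 109 CPM in 1CT-A, a log2FC of 0.58 (SE 0.08, edgeR adjusted p = 6.7e-05). The 1CT-A libraries are above the 1CT libraries in both. The ratio of FANCD2 to FANCI reads is nearly constant within 1CT, at 0.164, 0.168 and 0.167, and is 0.239, 0.232 and 0.217 in 1CT-A, so the ratio is higher in every 1CT-A library (p = 0.1, two-sided exact permutation test).

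**Figure D3:**
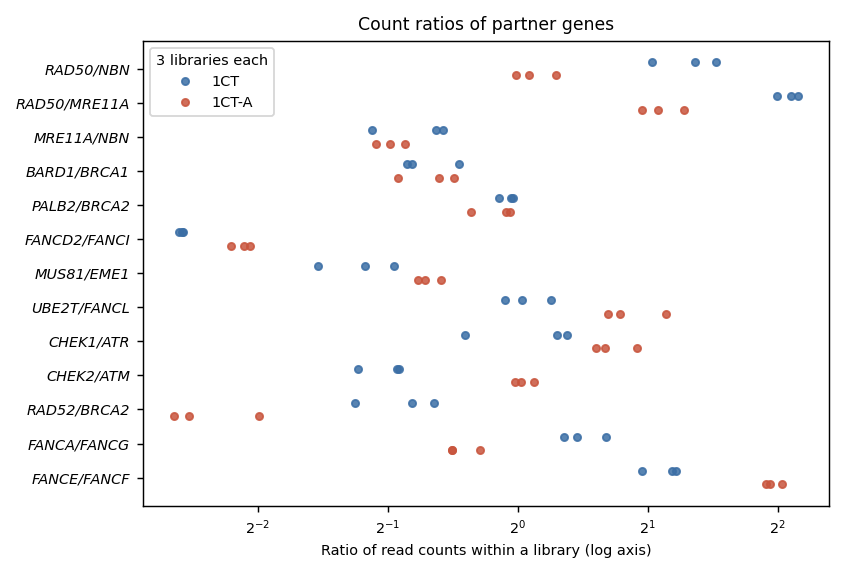
Ratio of read counts of 13 pairs of genes, partners apart from RAD52 and BRCA2, within each library, on a log axis. The 3 libraries of 1CT are in blue and those of 1CT-A in red. The ratios of MRE11A to NBN, BARD1 to BRCA1 and PALB2 to BRCA2 overlap between the cell lines, and the other 10 do not.

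The 13 ratios in the plot were chosen with the values known. The pairs are direct partners or enzyme and substrate, except RAD52 with BRCA2, which it backs up. The 10 ratios that separate the cell lines are therefore a description, and the share over other pairs of genes was not computed. Of all single genes tested, 31.8% lie wholly above and 27.9% wholly below in 1CT-A. Each of those 10 has the smallest exact p of 0.1, or 0.13 after Benjamini-Hochberg adjustment over the 13.

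POLQ rises, as do MUS81 and GEN1 of the genes that act on joint molecules. POLQ, the polymerase of microhomology-mediated end joining, is at 9.70, 9.30 and 6.42 CPM in the 1CT libraries and at 14.5, 14.0 and 14.4 CPM in 1CT-A, a log2FC of 0.72 (SE 0.16, edgeR adjusted p = 0.00195). MUS81, a structure-selective nuclease, rises by 0.61 (SE 0.10). EME1, the subunit that MUS81 needs, has a log2FC of 0.09 (SE 0.07, edgeR adjusted p = 0.333), and the ratio of MUS81 to EME1 reads is 0.344 to 0.516 in 1CT and 0.586 to 0.664 in 1CT-A. SLX4, the scaffold of these nucleases, has a log2FC of 0.21 (edgeR adjusted p = 0.271). GEN1, the resolvase, rises by 0.42 (SE 0.16, edgeR adjusted p = 0.0389), but its call holds in only 1 of the 6 fits that leave out a library, the one without 1CT replicate 1. In the other 5 its adjusted p is 0.0823 without 1CT-A replicate 1, 0.0620 without 1CT-A replicate 2, 0.101 without 1CT-A replicate 3, 0.117 without 1CT replicate 2 and 0.0694 without 1CT replicate 3.

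The effector kinases and the apical kinases differ in call. CHEK1, the effector of ATR, is at 14.8, 9.54 and 13.7 CPM in the 1CT libraries and at 16.8, 20.1 and 17.5 CPM in 1CT-A, a log2FC of 0.48 (SE 0.16, edgeR adjusted p = 0.0229). This call is lost without 1CT replicate 2 (0.0860) and without 1CT-A replicate 2 (0.0911). CHEK2, the effector of ATM, rises by 0.80 (SE 0.16, edgeR adjusted p = 9.2e-04). ATM, which responds to breaks, is at 14.0, 16.2 and 15.3 CPM in 1CT and at 11.5, 14.0 and 13.2 CPM in 1CT-A, with a log2FC of -0.27 (SE 0.13, edgeR adjusted p = 0.104). ATR, which responds to single-stranded DNA, has a log2FC of -0.14 (SE 0.13, edgeR adjusted p = 0.400). Reads of CHEK2 relative to ATM are at 0.525, 0.425 and 0.529 in 1CT and at 0.984, 1.09 and 1.02 in 1CT-A. H2AFX codes for the histone variant that these kinases phosphorylate around a break. It is at 51.9, 46.7 and 39.7 CPM in 1CT and at 90.7, 94.4 and 93.2 CPM in 1CT-A, a log2FC of 0.97 (SE 0.09) with the smallest adjusted p of the 43 genes (edgeR, 2.5e-06).

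Some of these genes share exons with a neighbor, mostly on the opposite strand. Their values are uncertain because the sources do not say whether counting used the strand or how reads in shared exons were treated. In the GENCODE release 44 annotation, 18 of the 43 genes overlap an exon of another counted gene, and in 9 of them the overlap lies within 2000 bases of the gene's 3′ end, where reads would lie if the library is of 3′ ends, which was not tested. RAD54L, a translocase of strand exchange, shares 813 exonic bases with LRRC41 on the other strand. It has 450, 413 and 290 reads in the 1CT libraries, and LRRC41 has 450, 412 and 290. In 1CT the counts of the pair thus differ by at most 1 read. In 1CT-A RAD54L has 670, 754 and 770 reads and LRRC41 584, 645 and 682, so that RAD54L exceeds its neighbor by 86, 109 and 88 reads. The log2 fold change of RAD54L is 0.38 (SE 0.11, edgeR adjusted p = 0.0130, lost without 1CT-A replicate 2 at 0.0555) and that of LRRC41 is 0.18 (SE 0.11, edgeR adjusted p = 0.202). How many of the RAD54L reads come from RAD54L transcripts cannot be told from these counts.

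FANCL and VRK2, which share 572 exonic bases at their 3′ ends, also have similar counts, with 164 and 163, 202 and 182, and 148 and 146 reads in 1CT. In 1CT-A FANCL has 287, 257 and 343 reads and VRK2 275, 270 and 367. The counts of NBN and its neighbor OSGIN2, and those of EME1 and the more abundant LRRC59, are less alike. OSGIN2 has a log2 fold change of 0.27 and LRRC59 of 0.36, beside 0.33 for NBN and 0.09 for EME1. FANCA shares 2409 exonic bases with ZNF276 on the other strand, 72 of them near its 3′ end. In 1CT FANCA has 218, 247 and 229 reads and ZNF276 255, 279 and 268. In 1CT-A FANCA has 284, 313 and 281 reads and ZNF276 219, 256 and 245. ZNF276 falls by 0.71 on the log2 scale (edgeR adjusted p = 9.2e-05), so a change of FANCA itself cannot be told from these counts. Of the genes that rise, FANCI shares 431 exonic bases near its 3′ end with POLG (log2 fold change 0.17). GEN1 shares 107 such bases with SMC6 (0.35) and MUS81 11 with EFEMP2 (-0.62). MUS81 also shares 759 exonic bases elsewhere with the more abundant CFL1 (-0.06). XRCC3 shares 5756 exonic bases away from its 3′ end with the more abundant KLC1 (-0.16). Other rises with such overlaps are CHEK2 (293 bases with HSCB, 0.39), FANCC (165 with C9orf3, 0.01) and FANCD2 (359 with FANCD2OS, 0 to 4 reads). RAD54B shares 3511 bases with FSBP (0.68, 9 to 30 reads) and CHEK1 53 with STT3A (0.18). Both of these neighbors lie on the same strand, where strand-aware counting would not separate them. Ratios that hold a gene with an overlap near its 3′ end carry the same uncertainty. They are RAD50 to NBN, MRE11A to NBN, FANCA to FANCG, FANCD2 to FANCI, UBE2T to FANCL and MUS81 to EME1. Genes with an overlap elsewhere also enter RAD50 to MRE11A, CHEK1 to ATR, CHEK2 to ATM and FANCE to FANCF. Without the 9 genes whose overlap lies near the 3′ end, 19 of 34 genes rise and 2 fall, with a median log2 fold change of 0.54. Without all 18 genes that share exons, 13 of 25 genes rise and 1 falls, with a median of 0.52. Of all genes tested, 25.0% rise and 26.0% fall.

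**Figure D4:**
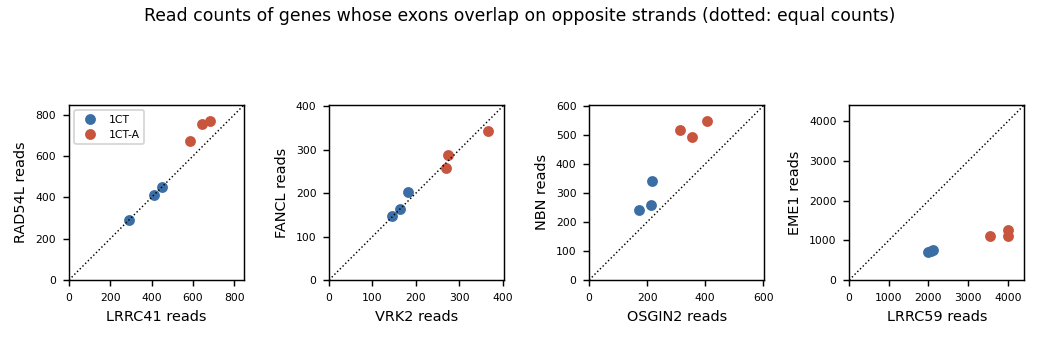
Read counts per library of RAD54L, FANCL, NBN and EME1 (vertical axes) against those of the gene that overlaps each on the opposite strand (horizontal axes), with 1CT in blue and 1CT-A in red. The dotted line marks equal counts; RAD54L lies on it in the 3 1CT libraries and above it in the 3 1CT-A libraries, and FANCL lies near it throughout.

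A separate list holds 35 other genes of the pathways. Of the 30 with enough reads, 12 rise (40%), 3 fall (10%) and 15 are not called, with a median log2 fold change of 0.21. The 2 called genes with the largest changes are DCLRE1A, a crosslink repair nuclease (1.24, SE 0.28, on 10 to 14 reads in 1CT), and RMI2, a subunit of the BLM dissolvase (1.21, SE 0.12). USP1, which removes ubiquitin from FANCD2, rises by 0.99 and all 3 subunits of the single-strand binding protein RPA rise by 0.53 to 0.69. The 3 falls are in SWI5, ZSWIM7 and FAAP100, the last of which is a partner of FANCB and FANCL. USP1, the RPA subunits and the 3 genes that fall were picked after their values were seen.

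In the list of 23 checkpoint and break signaling genes, 10 rise (43.5%) and 1 falls (4.35%), with a median log2 fold change of 0.30. WEE1, the kinase that restrains CDK1, rises by 0.89 (SE 0.15), and TIMELESS, of the fork protection complex, by 0.80 (SE 0.08). Among other repair pathways, 4 of 11 end joining genes rise (36.4%) and 1 falls (9.09%). XRCC4, a cofactor of DNA ligase IV, rises by 1.12 (SE 0.25), and APLF, an end joining scaffold with 9 to 32 reads per library, falls by 1.70 (SE 0.38). Of 17 nucleotide excision repair genes tested, 5 rise (29.4%) and 3 fall (17.6%), shares near the 25.0% and 26.0% of all genes tested. ERCC6, which acts in transcription-coupled repair, falls by 2.01 (SE 0.15), and GTF2H2, whose near-identical copies make its count uncertain, rises by 0.63 (SE 0.10). Base excision repair has 10 rises (55.6%) and 1 fall (5.56%) among 18 genes, led by the glycosylase gene NEIL3 at 1.27 (SE 0.19) and the endonuclease gene APEX1 at 1.01 (SE 0.14). The median log2 fold changes of these 3 repair lists are 0.30, 0.13 and 0.32, in this order. Whether any list differs from the homologous recombination and Fanconi genes was not tested.

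Cell cycle genes rise as well. The S phase list of Seurat holds 4 of the 43 genes, namely BLM, BRIP1, EXO1 and RAD51AP1, and of its 38 other genes found in the files 37 rise, with a median log2 fold change of 0.83. Of the 54 genes of the G2/M phase list 50 rise, with a median of 0.86. Without the 4 genes on the S phase list, 21 of the remaining 39 genes rise and 2 fall, with a median log2 fold change of 0.42. The part of the cell cycle in the rise of the repair genes was not tested. Within the 43 genes, those that rise by more than the median of the S phase list are EXO1, BLM, FANCE, FANCD2, FANCC, UBE2T, XRCC3, H2AFX, RAD51AP1 and DNA2, with log2 fold changes between 0.95 and 1.21, while BRCA1, BARD1, FANCI and MUS81 lie between 0.52 and 0.61.

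**Figure D5:**
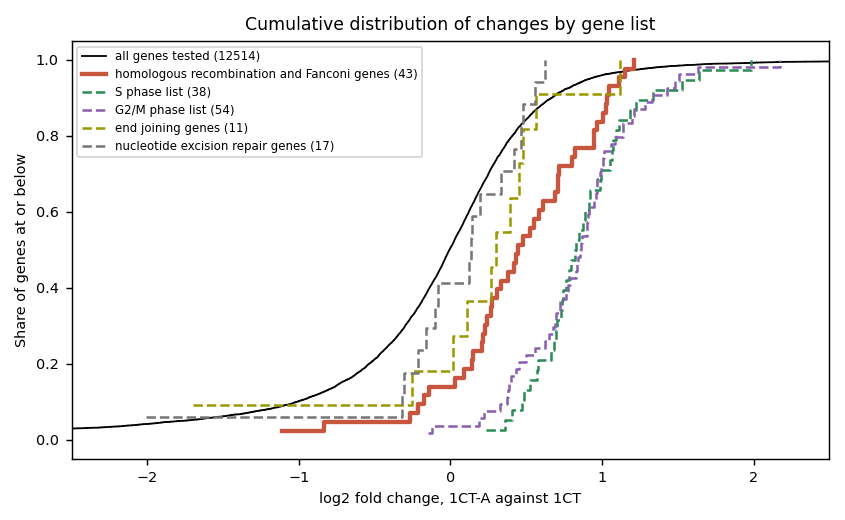
Cumulative share of genes (vertical axis) at or below each log2FC, 1CT-A over 1CT (horizontal axis), for all genes tested, the 43 homologous recombination and Fanconi genes, the lists of S phase and of G2/M phase without those genes, and 2 other repair lists, with the number of genes in brackets. The curve of the 43 genes (median 0.44) runs between that of all genes (median -0.01) and those of the S and G2/M phase lists (medians 0.83 and 0.86).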

How the data were processed

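Bulk RNA-seq was made from total RNA (500 ng per library) with a Lexogen Quant-Seq kit, per the labels, in 3 1CT and 3 1CT-A libraries. For each library the authors deposited raw read counts per gene symbol, whole numbers without normalization or pooling, in 25737 entries. The submitters' processing notes name Bowtie2, edgeR and hg19. The counter, annotation and strand setting are not given in the sources used here. The study's methods speak of RNA sequencing, name a cDNA microarray as its last step and give no kit, so the kit could not be checked against them, and whether reads lie at 3′ ends was not tested. Entries of 1 symbol were summed.

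Counts were tested with edgeR 4.0.16 in R 4.3.3 (TMM, filterByExpr with a minimum count of 10, two-sided quasi-likelihood test between the cell lines, no block), with Benjamini-Hochberg adjustment over 12514 genes and calls at an adjusted p under 0.05. On simulated data of this comparison with 12342 genes tested, the fit recovered 90.9% of 99 genes changed by a log2 of 1 and 76.8% of 99 changed by 0.6, with 11 false calls. The simulation gave all genes the same dispersion and changed few of them, while 51.0% of the genes tested are called in the real data. These shares therefore need not hold for the real data. A level of 3 reads, the limit a count of 0 allows, is 0.238 to 0.385 CPM, and covers counting error only. Replicates differed by more than counting noise (chi-square per degree of freedom 3.11 to 9.00). Same-numbered libraries did not deviate together (correlations of -0.16, 0.22 and -0.14), so no pairing was used. Positions are from GENCODE release 44 on GRCh38, another build than the counts, matched for 92.2% of symbols, and promoters are from RefSeq. Alternatives covered scaling, filters, limma-voom 3.58.1, DESeq2 1.42.0, a per-gene two-tailed test on log2(CPM + 1), the block, the largest entry of a symbol, and each library left out. Neighbors, ratios and 2 alternatives were added after seeing the data.

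The 43 genes and all lists were chosen with earlier results of these data known. Values in every library are given for BRCA1, BRCA2, PALB2, FANCD2, FANCI, RAD51AP1, CHEK1, ATM, each gene called lower and the called gene with the largest change in each role, and others, such as NBN and all ratios, were chosen after their values were seen. Other lists are given by counts and up to 2 called genes with the largest change. Some results that the rule covers are not reported here.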

Additional observations from a re-analysis of the deposited data

How the results depend on the processing

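With the replicate block 23 of the 43 genes rise and 2 fall, and no gene but GEN1 loses its call (edgeR adjusted p = 0.0626), while the number of all genes called goes from 6388 to 6091. The number of the 43 genes that rise is between 16 and 26 over the alternatives of scaling, filter, test and threshold, the lowest with a filter of a mean of at least 10 CPM, which keeps 27 of the genes. That filter leaves 1 falling gene, RAD50, because RAD52 is not tested. The number past 2-fold, 8 in all, is 4 with upper quartile scaling, 2 with the filter of 10 CPM and 4 with the per-gene test on log2(CPM + 1). With each library left out in turn, 20 to 24 genes rise, 2 fall, 6 to 10 are past 2-fold, the median log2 fold change is between 0.42 and 0.51, and 5364 to 6551 genes are called in all. RAD51B, which is not called, changes sign with upper quartile scaling (-0.025) and in 2 of the fits without a library (-0.20 without 1CT replicate 3 and -0.11 without 1CT-A replicate 2, in a range up to 0.19). The per-gene test also loses the calls of RAD54L, RAD54B, NBN, DNA2 and CHEK1 and gains that of FANCF, the filter of 10 CPM that of NBN, and upper quartile scaling and DESeq2 that of GEN1, with their directions kept. The cause was not tested. With 7 to 53 reads per library, RAD51B, FANCB and FANCM have SEs of 0.27 to 0.35, and changes within these errors are not detectable. XRCC2 and XRCC3, at similar levels in 1CT, have SEs of 0.20 and 0.24 and are called.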
